A study of Mus musculus with 4 samples.

Results

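Glycolysis splits glucose into pyruvate in the cytosol, and the pentose phosphate pathway draws off glucose 6-phosphate to make NADPH and ribose. Pyruvate is then reduced to lactate or enters the mitochondria through the pyruvate dehydrogenase complex, which dedicated kinases switch off. Microglia, the macrophages of the brain, are known to use glucose and other fuels and to shift towards glycolysis when they are activated. Many of these steps have several isoenzymes, encoded by separate genes with different tissue preferences.

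The 30 genes described here are the enzymes of glycolysis through lactate dehydrogenase (17), those of the pentose phosphate pathway (7), 2 subunits of pyruvate dehydrogenase with 2 of its kinases, and the 2 bifunctional PFK-2 enzymes. They were picked by symbol through the Ensembl identifiers of a count table of 55471 genes. Aldoa has a second identifier with 49 counts in all, so that 31 rows carried a member's symbol, and the row inside the RefSeq Aldoa gene was used.

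Poly(A) RNA was sequenced from CD11b-positive cells, the microglia and other myeloid cells that magnetic beads hold back from mouse brain. All 4 libraries form 1 group of mice aged 10 to 13 weeks. The animals had received PLX5622, an inhibitor of the receptor CSF1R that microglia need for survival, for 7 days and then no drug for 10 days. The labels give no strain, sex or genotype and do not state if the libraries stem from different animals, so that every p-value given speaks of the scatter among these 4 samples, part of which may be technical. No other group was analysed here: returned cells cannot be told apart from cells that outlived the drug, and no effect of PLX5622 is estimated.

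The libraries, numbered 1 to 4 by the labels, held 23036202 to 24487418 counts, at which 3 counts of a gene correspond to 0.119 to 0.132 CPM (counts of a gene per 1000000 counts of its library, after TMM scaling of library sizes). The 12 homeostatic microglia markers summed to 36470 to 45178 CPM. Library 3 stood apart in markers of several other cell types. Endothelial markers summed to 208 CPM in library 3 and to 766 to 900 CPM in the others. Pericyte and smooth muscle markers summed to 102 CPM in library 3 against 449 to 693 CPM, and ependymal and choroid plexus markers, led by Ttr, to 3349 CPM against 16080 to 22444 CPM. Oligodendrocyte markers, with 2 of 8 genes called for their spread by the test described below, summed to 415 CPM in library 3 and to 526 to 935 CPM in the others. Neutrophil markers followed another order, with sums of 83.8, 84.4, 35.9 and 19.1 CPM in libraries 1 to 4 and 2 of 7 tested genes called. T and NK cell markers summed to 21.7, 15.4, 8.94 and 8.89 CPM. Neuronal markers were low throughout, at 17.9 to 29.2 CPM, with 4 of 11 genes at 1 CPM or more in every library. No marker gene was at 0 counts in all 4 libraries.

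All 30 genes reached 1 CPM or more in every library, as did 12512 of the 55471 genes of the table. Their share of all counts was 0.323%, 0.329%, 0.332% and 0.333% in libraries 1 to 4. Their summed level was 3292 ± 103 CPM (SD, n = 4). Glycolysis to lactate contributed 2033 ± 39.1 CPM, the pentose phosphate pathway 636 ± 65.2 CPM, pyruvate dehydrogenase and its kinases 319 ± 10.7 CPM and the PFK-2 enzymes 305 ± 76.2 CPM.

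Levels of different genes were compared as CPM per kilobase (kb) of exonic length, the union of a gene's exons. On that scale Ldhb, the lactate dehydrogenase subunit that favours the oxidation of lactate to pyruvate, was the highest of the 30 genes at 175 ± 18.8 CPM per kb (SD, n = 4). Aldoa, the aldolase that splits fructose 1,6-bisphosphate, followed at 102 ± 7.78 CPM per kb. Hk2, Taldo1 and Pkm came next at 56.4 ± 7.01, 55.4 ± 10.0 and 48.1 ± 3.40 CPM per kb. The ranges of Ldhb and Aldoa did not overlap each other or that of Hk2, whereas those of Hk2 and Taldo1, and of Taldo1 and Pkm, overlapped. Ldhb ranked first and Aldoa next under each of the 4 definitions of gene length that were tried. At the low end were Gapdh at 4.13 ± 0.855, Pfkp at 3.24 ± 1.58, Pgk1 at 2.25 ± 0.509, Eno2 at 1.82 ± 0.933 and Pgam1 at 1.77 ± 0.667 CPM per kb, each overlapping its neighbour.

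**Figure D1:**
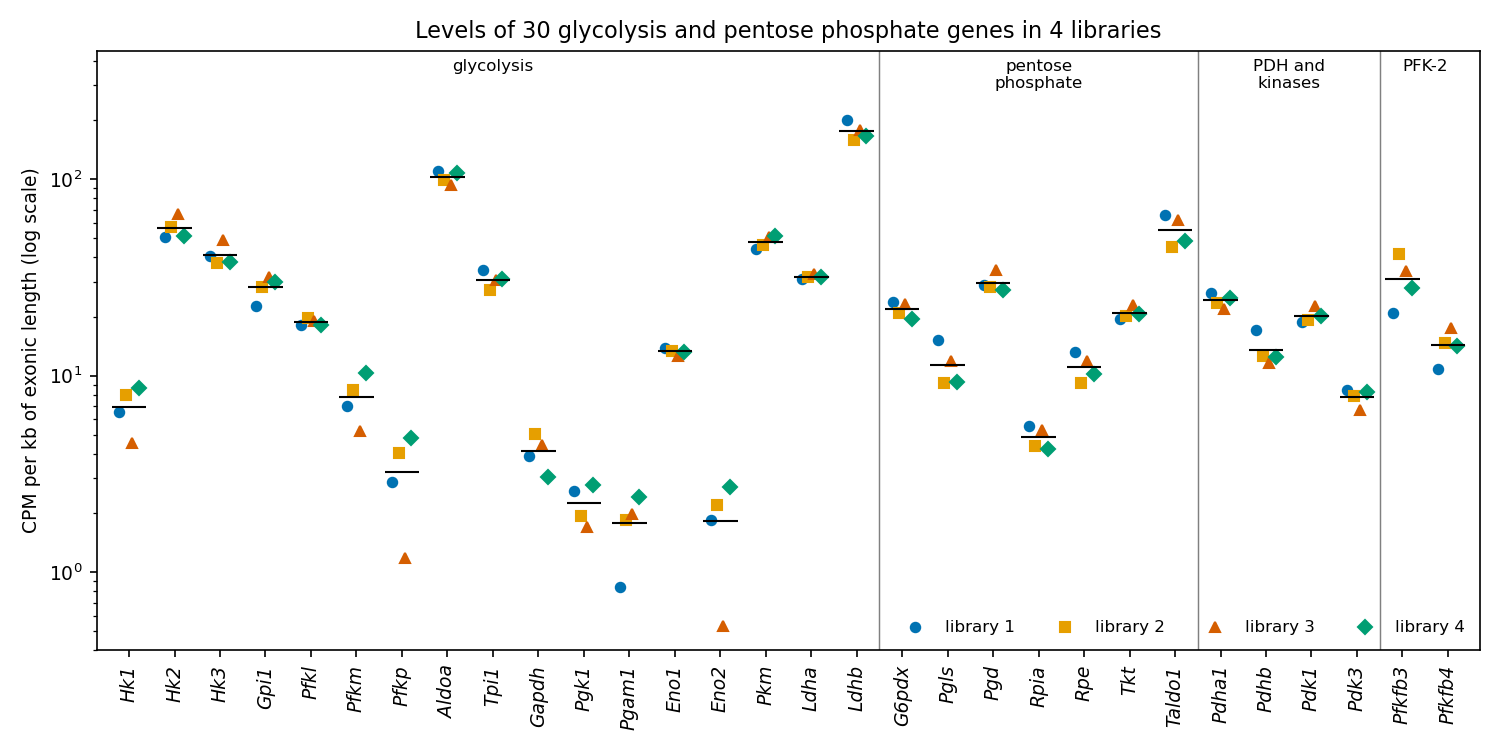
CPM per kb of exonic length (log axis) of the 30 genes in pathway order, with 1 point per library and a line at the mean of the 4 libraries. Ldhb and Aldoa stand highest, Gapdh, Pgk1 and Pgam1 lie low between abundant steps, and library 3 is the lowest point of Hk1, Pfkm, Pfkp and Eno2.

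Of the 3 hexokinase members, whose enzymes phosphorylate glucose in the first step of glycolysis, 2 held most of the level per kb. Hk2 (chr6:82725025-82774454, minus strand, GRCm38), an inducible hexokinase known from muscle, fat and activated macrophages, had 305, 341, 395 and 307 CPM in libraries 1 to 4. Hk3, known from myeloid cells, had 150, 138, 181 and 139 CPM, and Hk1, the hexokinase of most brain cells, had 55.7, 68.2, 38.6 and 73.5 CPM. Library 3 was the highest for Hk2 and Hk3 and the lowest for Hk1. Per kb, Hk2 made up 53.9% ± 1.88, Hk3 39.4% ± 2.29 and Hk1 6.75% ± 2.17 of the 3 genes (SD, n = 4). Hk2 exceeded Hk1 in all 4 libraries, by 2.97 ± 0.53 on the log2 scale (7.83-fold), and Hk3 exceeded Hk1 by 2.52 ± 0.56 (5.74-fold). Both gaps depend on the length used: Hk2 over Hk1 was 2.14 on the log2 scale with the longest transcript and 2.10 with unique length (bases in words found in no other gene), Hk3 over Hk1 was 1.77 and 1.73, and Hk1 made up 11.5% of the 3 genes with the longest transcript. The gap of Hk2 over Hk3 was smaller, 0.45 ± 0.12 on the log2 scale (1.36-fold), and was again positive in 4 of 4 libraries.

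Such ratios were formed for 12 pairs, as differences of log2 of CPM per kb plus a pseudocount of 0.5. Each of the 12 had the same sign in all 4 libraries. With 4 libraries an exact two-sided sign-flip permutation test cannot give less than p = 0.125 (2 of 16 sign flips). Every pair gave this value, also after Benjamini-Hochberg adjustment over the 12 pairs, so no ratio could pass 0.05.

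Gpi1, which interconverts the 6-phosphates of glucose and fructose, had 145, 183, 206 and 192 CPM, with library 1 below the others. Of the phosphofructokinases, which commit sugar to glycolysis, the liver type Pfkl was the most abundant per kb and the steadiest. Its level was 120, 131, 127 and 121 CPM in libraries 1 to 4, and it held 63.7% ± 8.52 of the family. Pfkp, the platelet type (chr13:6579768-6648777, minus strand), had 38.7, 54.5, 15.9 and 64.5 CPM, and library 3 was far below the other libraries. Pfkm, the muscle type, had 23.5, 28.3, 17.4 and 34.5 CPM, again lowest in library 3. Pfkl exceeded Pfkm by 1.26 ± 0.41 and Pfkp by 2.48 ± 0.75 on the log2 scale (SD, n = 4). With the length of the longest coding transcript these ratios were 1.88 and 1.79, and with unique length 1.88 and 1.53. The log2 ratio of Pfkp over Pfkm was -1.23 ± 0.36, but it turned to 0.088 when the length of the longest coding transcript replaced the union of exons, so the order of this pair depends on the length used.

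**Figure D2:**
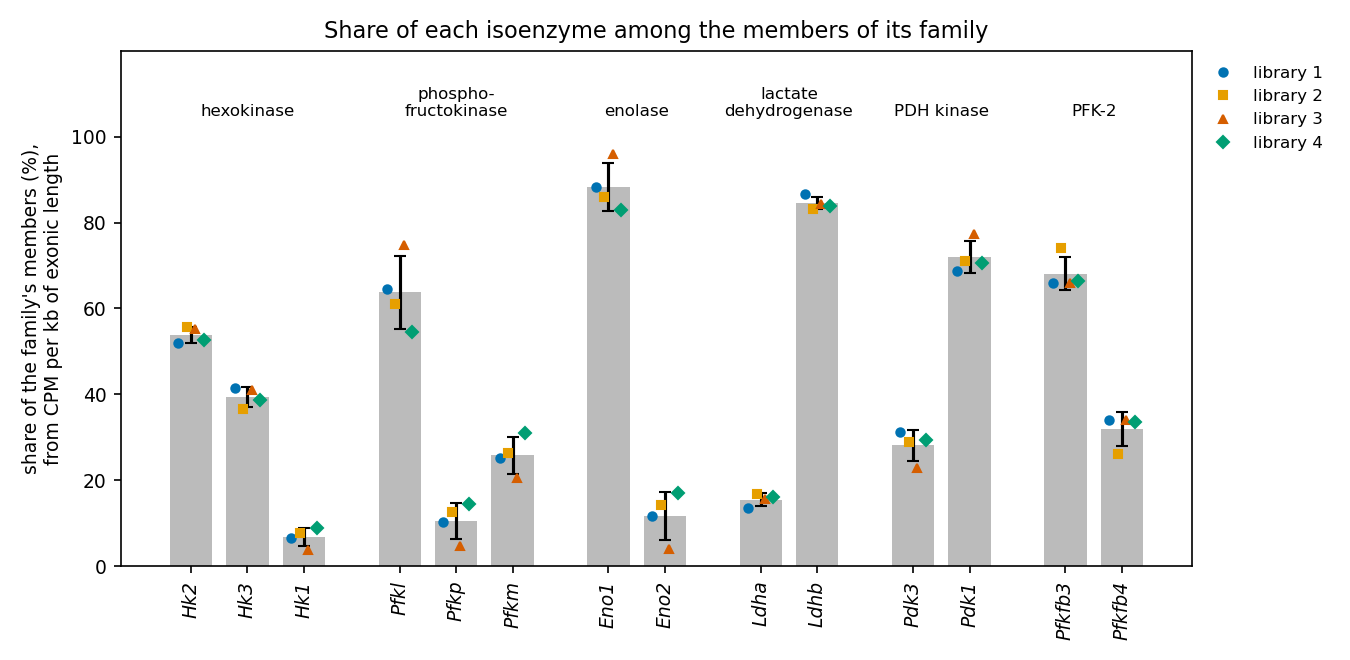
Share of each isoenzyme among the members of its family in percent, without Eno3 and Pdk2, which are no members, computed from CPM per kb of exonic length, with bars for the mean, whiskers for ± 1 SD over 4 libraries and 1 point per library. Hk2 and Hk3 take most of the hexokinase family, Ldhb 84.5% of lactate dehydrogenase and Eno1 88.3% of Eno1 and Eno2 together, and library 3 has the lowest shares of Hk1, Pfkm, Pfkp and Eno2.

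Aldoa had 320, 287, 271 and 313 CPM, and Tpi1, the triose phosphate isomerase, 94.6, 75.2, 84.4 and 85.1 CPM in libraries 1 to 4. Both varied little, with coefficients of variation of 7.61% and 9.35%. The following 3 steps of glycolysis were counted far lower than their neighbours. Gapdh (chr6:125161715-125166467, minus strand), the glyceraldehyde-3-phosphate dehydrogenase often used as a reference gene, had 397, 485, 419 and 318 counts, or 16.2, 20.9, 18.4 and 12.6 CPM. Pgk1, the phosphoglycerate kinase, had 142, 101, 87 and 157 counts, or 5.79, 4.36, 3.83 and 6.23 CPM. Pgam1, the phosphoglycerate mutase, had 41, 85, 89 and 121 counts, or 1.67, 3.67, 3.92 and 4.80 CPM, and library 1 was the lowest. The low counts of Gapdh, Pgk1 and Pgam1 next to Aldoa and Pkm were set beside the sequence that each gene shares with others.

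These 3 genes and Eno1 are the members whose transcripts hold the least unique sequence. Only 17.5% of the 50-base words of the longest coding transcript of Gapdh occur in no other gene of GENCODE M21, 27.8% of those of Eno1, 32.0% of those of Pgk1 and 58.5% of those of Pgam1. The other 26 genes had at least 65.6%, the value of Pkm. The median level was 3.19 CPM per kb for the 4 genes under 60% and 21.3 CPM per kb for the 26 others, which range from 1.82 to 175 CPM per kb. Eno2, at 99.7% unique sequence, was nevertheless among the lowest, so low levels were found without shared sequence as well.

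Gapdh has 168 copies in the annotation, of which 164 are pseudogenes. A copy is a gene of which at least 50% aligned to the member's transcript, at 90% identity or more over 300 bases or more. Of these copies, 156 had at least 1 count. They summed to 579, 553, 490 and 596 counts in libraries 1 to 4, more than Gapdh itself in every library, and to 137% of its counts over all 4. Counts were spread thinly, since 44 copies held 1% or more of the Gapdh count. The highest of them, Gm9522, held 160 counts in all, unevenly at 5, 86, 37 and 32 in libraries 1 to 4. Peli2, a gene of another function whose exons align to Gapdh over 11.9% of their length, was not added. The pseudogene 3000002C10Rik, aligned over 31.6% of its length and with 264 counts in all, was left out by the same rule. Pgk1 had 4 copies with 18 counts (3.70% of its own), of which AC131796.1 held 16, and Pgam1 had 3 copies with 3 counts (0.893%). The remaining members with copies had under 1% of their counts in them, with 12 copies of Ldha and 8 of Pkm as the most numerous.

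The shared stretches can be read directly. Every 60-base window that lies inside 1 coding exon was identical in at least 1 copy for Gapdh (681 of 681 windows), Pgk1 (631 of 631) and Pgam1 (526 of 526). For Eno1 this held for 532 of 653 windows (81.5%), for Pdhb for 41.2%, for Pkm for 35.9% and for Ldhb for 29.7%. One window per gene is printed here, the one shared by most copies, to show sequence that a gene and its copies have in common, with capitals for bases that differ from the gene. The Gapdh window lies at chr6:125162896-125162955 on the minus strand (GRCm38) and is identical in 64 copies. That of Pgk1 lies at chrX:106200208-106200267 on the plus strand and is identical in 3 copies, and that of Pgam1 at chr19:41915608-41915667 on the plus strand and is identical in 2.
Gapdh: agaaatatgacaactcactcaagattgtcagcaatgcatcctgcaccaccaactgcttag
Gm10327, a copy: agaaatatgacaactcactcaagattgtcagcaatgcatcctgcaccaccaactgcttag
Gm5069, a copy: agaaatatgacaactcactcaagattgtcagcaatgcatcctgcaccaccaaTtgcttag
Pgk1: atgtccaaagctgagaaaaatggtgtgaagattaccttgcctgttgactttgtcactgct
Pgk1-rs7, a copy: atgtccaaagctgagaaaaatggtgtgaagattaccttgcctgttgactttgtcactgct
Pgk1-ps1, a copy: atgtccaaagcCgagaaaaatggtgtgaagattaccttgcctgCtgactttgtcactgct
Pgam1: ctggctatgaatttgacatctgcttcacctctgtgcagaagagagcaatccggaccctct
Pgam1-ps1, a copy: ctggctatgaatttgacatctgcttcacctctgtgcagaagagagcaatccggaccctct
Gm11203, a copy: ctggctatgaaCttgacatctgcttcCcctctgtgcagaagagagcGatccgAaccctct
Gm5069 differs from Gapdh at 1 base of this window, Pgk1-ps1 from Pgk1 at 2 and Gm11203 from Pgam1 at 4, while Gm10327, Pgk1-rs7 and Pgam1-ps1 match letter for letter. How reads that match several genes were counted is not given in the sources used here, and the part of shared sequence in the low counts was not tested. Dividing by the unique bases of the longest coding transcript gave 68.6 ± 14.2 CPM per unique kb for Gapdh, 127 ± 4.78 for Eno1, 8.64 ± 1.95 for Pgk1 and 3.39 ± 1.27 for Pgam1 (SD, n = 4). By that measure Gapdh ranked 9 and Eno1 4 of the 30 genes, against 26 and 19 by the union of exons, whereas Pgk1 ranked 28 and Pgam1 29 and stayed low. The counts cover all exons of a gene, so this change of rank mixes a shorter length with shared sequence. By the full length of the longest coding transcript, Gapdh ranked 24 and Eno1 14, at 12.0 and 35.2 CPM per kb. The levels of Gapdh, Eno1, Pgk1 and Pgam1 are therefore uncertain, and no order among them is read here.

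**Figure D3:**
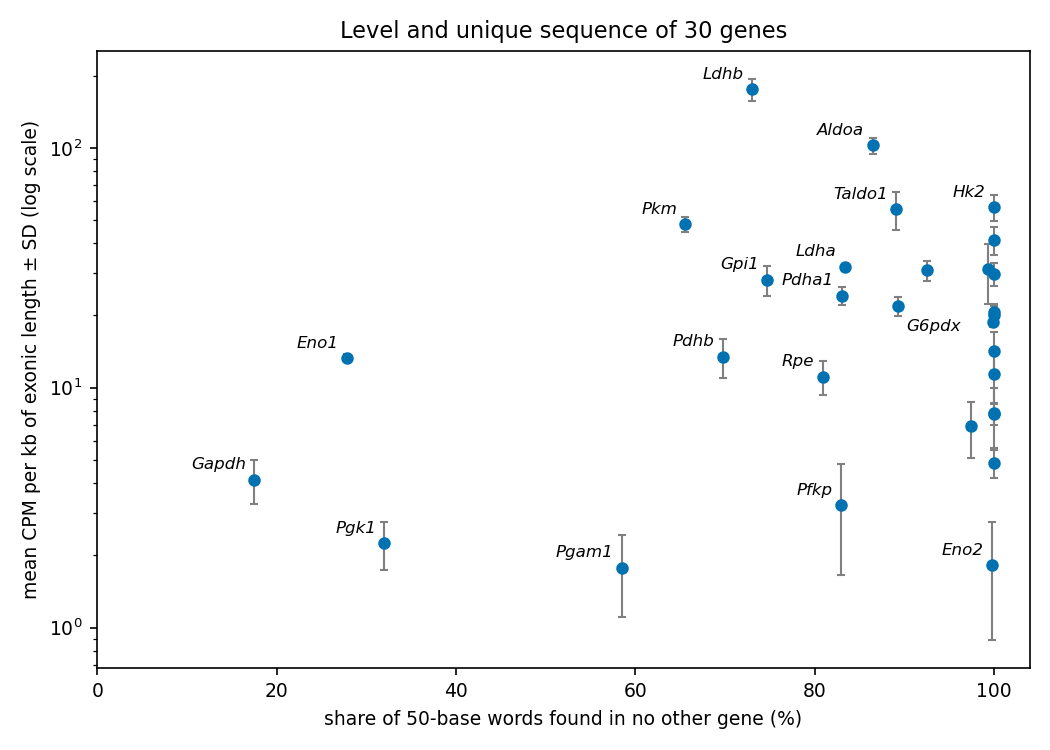
Mean CPM per kb of exonic length (log axis, whiskers ± 1 SD over 4 libraries) against the share of 50-base words that occur in no other gene, for the 30 members. Gapdh, Eno1, Pgk1 and Pgam1 lie left of the rest, at 17.5% to 58.5% unique sequence, and Eno2 and Pfkp are low at 99.7% and 82.9%.

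Of the enolases, which make phosphoenolpyruvate, Eno1 had 74.7, 71.6, 68.1 and 71.3 CPM, and its coefficient of variation of 3.77% was among the smallest of the members. Eno2 (chr6:124760053-124769673, minus strand), the enolase known from neurons, had 8.65, 10.3, 2.51 and 12.8 CPM, with library 3 below all others. The log2 ratio of Eno1 over Eno2 was 2.69 ± 0.69 and was highest in library 3, at 3.67 against 2.09 to 2.62. It was 3.47 with the longest transcript and 5.30 with unique length. Eno3, the muscle enolase and no member, had 14.8 ± 2.499 CPM per kb, beside 13.3 CPM per kb for Eno1. In CPM, Eno3 was at 25.7 and Eno1 at 71.4. With the longest transcript Eno1 was at 35.2 CPM per kb, so no order of Eno1 and Eno3 is read here. Pkm, whose transcript is spliced into the pyruvate kinases M1 and M2 that a count per gene cannot separate, had 221, 232, 254 and 256 CPM.

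Lactate dehydrogenase is built from Ldha subunits, which favour lactate production, and Ldhb subunits. Ldha (chr7:46841475-46855627, plus strand, GRCm38) had 103, 105, 110 and 105 CPM and the smallest coefficient of variation of all 30 genes, 2.7%. Ldhb (chr6:142490249-142507957, minus strand) had 315, 247, 279 and 259 CPM, highest in library 1. Ldha lay below Ldhb in 4 of 4 libraries, with a log2 ratio of -2.43 ± 0.16 (SD, n = 4), a level 5.41-fold higher for Ldhb. Per kb, Ldha made up 15.5% ± 1.45 and Ldhb 84.5% ± 1.45 of the pair, and 21.7% and 78.3% with the length of the longest transcript, at which the log2 ratio was -1.84. Leaving out any 1 library, adding the counts of copies or using unique length did not turn the sign of this ratio.

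The promoters of this pair were read from the RefSeq table (GRCm38.p6) as the 250 bases before an annotated start, because Ldha is a textbook target of hypoxia-inducible factor and of Myc. Capitals mark ACGTG and GCGTG, the core letters of hypoxia response elements, and all motifs were searched on both strands. Hk2, another textbook target, is added for comparison.
Ldha, chr7:46845554-46845803, plus strand: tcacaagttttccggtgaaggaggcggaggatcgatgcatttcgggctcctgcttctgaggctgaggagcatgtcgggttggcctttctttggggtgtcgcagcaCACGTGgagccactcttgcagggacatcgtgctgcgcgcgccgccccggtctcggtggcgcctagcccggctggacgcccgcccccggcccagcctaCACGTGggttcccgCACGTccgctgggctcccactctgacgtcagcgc
Ldhb, chr6:142507958-142508207, minus strand: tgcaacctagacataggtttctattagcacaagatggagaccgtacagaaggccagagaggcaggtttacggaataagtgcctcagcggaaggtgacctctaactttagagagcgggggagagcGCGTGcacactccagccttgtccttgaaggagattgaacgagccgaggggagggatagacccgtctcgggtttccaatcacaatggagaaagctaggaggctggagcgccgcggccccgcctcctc
Hk2, chr6:82774455-82774704, minus strand: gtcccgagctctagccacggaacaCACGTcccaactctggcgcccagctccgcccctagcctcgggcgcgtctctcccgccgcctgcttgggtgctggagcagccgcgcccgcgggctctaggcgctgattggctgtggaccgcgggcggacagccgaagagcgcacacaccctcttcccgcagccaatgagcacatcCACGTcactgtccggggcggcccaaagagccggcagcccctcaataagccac
The Ldha window has 3 marked stretches, of which 2 are the E-box CACGTG that also holds ACGTG on each strand, the Ldhb window has 1 and the Hk2 window has 2. Ldha has another window, at chr7:46846832-46847081 and not printed, with 1 marked stretch, no ACGTG and no E-box. Among the 43 windows of the 30 members, 14 (32.6%) held ACGTG and 24 (55.8%) held GCGTG, against 16.6% and 28.2% of all 32851 windows of the table. In all, 26 of the 30 genes had a window with at least 1 of the 2 forms, where a gene can have several windows. Some windows of Aldoa, Eno1 and Pfkm overlap, so that the same site was counted in more than 1 window. By window, 76.7% of those of members held either form, against 38.6% of all windows. The E-box CACGTG was found in 6.98% of member windows (Ldha, Pfkfb3 and Pfkm) against 6.02% of all windows, and the TATA box TATAAA in 2.33% (Eno2) against 12.4%. The GC box GGGCGG was in 55.8% of member windows against 32.7%. Member windows were also richer in G and C, with a median of 60.4% against 52.4%, and the part of base composition in these shares was not tested. A match of letters is a description of the window and says nothing of binding.

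RNA of all 3 enzymes of the oxidative arm of the pentose phosphate pathway, which makes NADPH, was detected. Pgd, the phosphogluconate dehydrogenase, was the highest of the 3 at 29.8 ± 3.33 CPM per kb and had 186, 182, 224 and 176 CPM in libraries 1 to 4. G6pdx, the X-linked glucose-6-phosphate dehydrogenase that opens the arm, had 73.3, 64.2, 71.6 and 60.0 CPM. Pgls, the lactonase, had 57.2, 34.7, 44.9 and 35.0 CPM. The log2 ratio of Pgd over G6pdx was 0.44 ± 0.12, positive in 4 of 4 libraries, and 1.04 with the longest transcript, 1.75 with the longest coding transcript and 1.59 with unique length, so the size of this gap depends on the length used.

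In the non-oxidative arm, which returns pentoses to glycolysis, Taldo1, the transaldolase, was the highest per kb and had 143, 98.5, 134 and 105 CPM. Tkt, the transketolase, had 143, 148, 169 and 152 CPM. Rpia and Rpe, which interconvert the pentose phosphates, had 22.8 to 29.7 and 28.5 to 41.2 CPM. All pentose phosphate genes except Tkt had their 2 highest values in libraries 1 and 3. That is 6 of 7 genes, beside 8 of all 30 members and 23.7% of the 14112 genes tested, and 7 of the 12 homeostatic microglia markers had the same pattern. When libraries were scaled to the homeostatic microglia markers, 3 of the 7 genes had it, against 6 under total counts and DESeq2 size factors. No gene of either arm passed the test of spread described below, so the pattern is a description of small differences.

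Pyruvate dehydrogenase links glycolysis to the mitochondrial citrate cycle. Pdha1, its X-linked E1 alpha subunit, had 98.9, 87.6, 81.3 and 93.0 CPM, and Pdhb, the E1 beta subunit, 66.0, 48.5, 44.9 and 48.3 CPM. Library 1 was the highest for both. The log2 ratio of Pdha1 over Pdhb was 0.83 ± 0.15 per kb of the union of exons and, with unique length and with the length of the longest coding transcript, -0.35 and -0.10, so the order of the 2 subunits depends on the length used. Of the kinases that inactivate the complex, Pdk3 had 21.7, 20.1, 17.0 and 21.3 CPM and Pdk1, induced by hypoxia in other cells, 145, 150, 175 and 156 CPM. Pdk3 lay below Pdk1 in 4 of 4 libraries (log2 ratio -1.31 ± 0.26), and library 3 was the highest for Pdk1 and the lowest for Pdk3. Pdk2, a kinase that is no member, had 8.02 ± 1.81 CPM per kb, beside 7.83 CPM per kb for Pdk3.

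The PFK-2 enzymes set the level of fructose 2,6-bisphosphate, the activator of phosphofructokinase. Pfkfb3, the form with the strongest kinase activity, had 158, 315, 256 and 211 CPM, and Pfkfb4 52.5, 71.5, 85.1 and 68.8 CPM. Library 1 was the lowest for both, and the highest value of Pfkfb3 was 1.99 times the lowest. Pfkfb3 exceeded Pfkfb4 by 1.07 ± 0.27 on the log2 scale (2.11-fold), with 1.47 in library 2 and 0.93 to 0.96 in the others.

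The spread between the 4 libraries was tested for each of 14112 genes by a goodness of fit of edgeR's negative binomial model, with no term but the mean and Benjamini-Hochberg adjustment over all of them. All 30 members were tested and 1 was called at an adjusted p under 0.05, which is 3.33% of them, near the 3.28% called among all genes (463). The called member was Pfkp, with an adjusted p of 0.0034 (goodness of fit in edgeR). Its level of 15.9 CPM in library 3 against a mean of 52.5 CPM in the others was 3.31 times lower, and each of the other libraries lay above it. Eno2 came next, 4.22 times lower in library 3 than the mean of the others, with an unadjusted p of 0.016 by the chi-square of the goodness of fit and an adjusted p of 0.25, so it did not pass. The median coefficient of variation was 13.3% over the members and 16.02% over all tested genes.

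The call of Pfkp rests on library 3. Without it the adjusted p of Pfkp in edgeR's goodness of fit was 1.00 and no member was called, with 3 members (Pgam1, Pgls and Pfkfb3) at an unadjusted p under 0.05 and 106 genes called in all. Without library 4 its adjusted p was 0.076, and it stayed at 0.026 or less without library 1 or 2. A quasi-likelihood test of the same counts, which lets genes scatter around the trend, called no gene at all (658 at an unadjusted p under 0.05, of which Pfkp was the only member), and DESeq2 marked no member as a dispersion outlier. The exons of Pfkp overlap those of Pitrm1 on the other strand over 5.58% of their length, and whether strand was used in counting is not given in the sources used here.

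Hk1 and Pfkm leaned the same way as Pfkp and Eno2 without passing the test. Hk1 was at 38.6 CPM in library 3 and 65.8 CPM on average in the others, and Pfkm at 17.4 against 28.8 CPM (adjusted p 0.87 and 1.00, goodness of fit in edgeR). On the other side, Hk2 had 395 CPM in library 3 against 318 CPM on average in the others, Hk3 181 against 142 CPM and Pgd 224 against 181 CPM. The 10 genes lowest in library 3 were the same under each of the 4 library scalings: Hk1, Pfkm, Pfkp, Aldoa, Pgk1, Eno1, Eno2, Pdha1, Pdhb and Pdk3. That is 33.3% of the members, beside 29.2% of all tested genes. In bulk RNA, fewer cells of a type and less RNA per cell cannot be told apart.

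**Figure D4:**
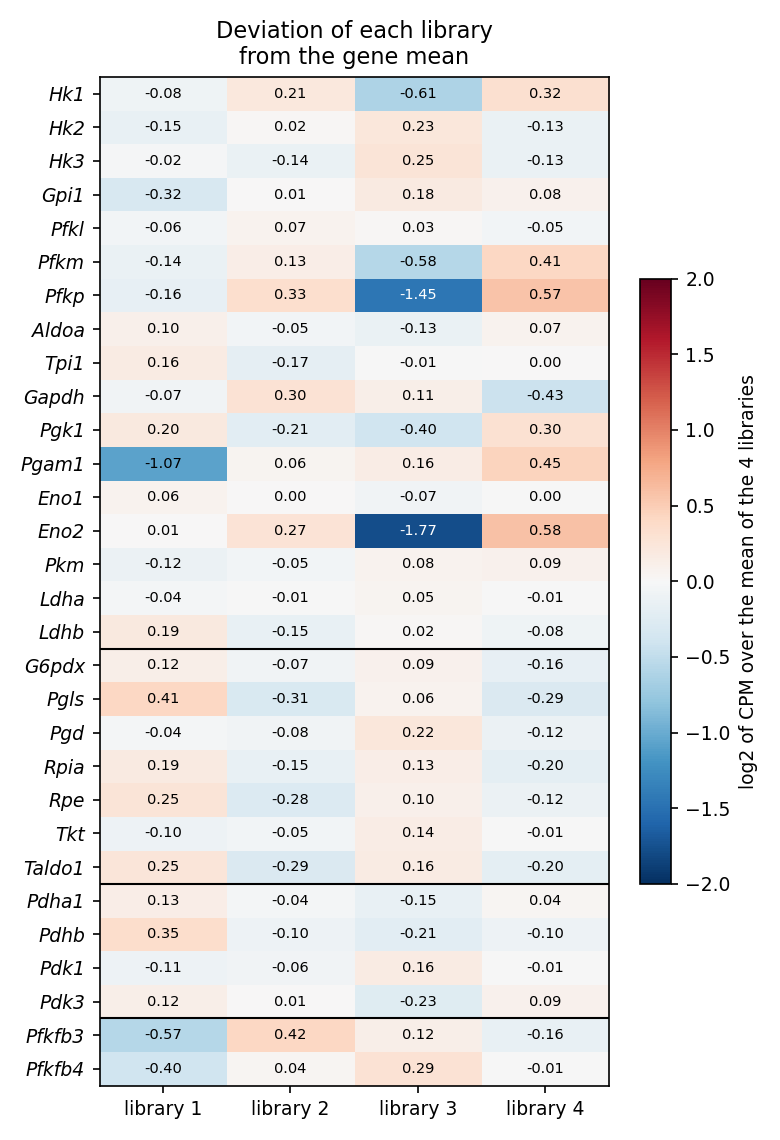
Log2 of CPM over the mean of the 4 libraries for each member (rows, in pathway order) and library (columns), with the value printed in each cell. The largest deviations are those of Eno2 (-1.77) and Pfkp (-1.45) in library 3 and of Pgam1 (-1.07) in library 1.

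Library 3 is also the library with the lowest sums of endothelial (0.244 times the mean of the others), pericyte and smooth muscle (0.171 times), ependymal and choroid plexus (0.184 times), oligodendrocyte (0.588 times) and erythroid markers (0.161 times). Neuronal markers summed to 17.9 CPM in library 3 and 27.9 CPM on average in the others, and astrocyte markers to 257 and 274 CPM. The neuronal list was mixed, with 3 of its 6 tested genes lowest in library 3 and some of its genes highest there. Homeostatic microglia markers summed in library 3 to 1.09 times the mean of the others. Pfkp at 0.302 times, Eno2 at 0.237 times, Pfkm at 0.604 times and Hk1 at 0.587 times the mean of the others moved in the direction of the lower sums. These genes were all highest in library 4. So were the sums of ependymal and choroid plexus (22444 CPM), neuronal (29.2 CPM) and astrocyte markers (312 CPM). Among libraries 1, 2 and 4, library 4 had the lowest endothelial (766 CPM), pericyte and smooth muscle (449 CPM) and erythroid sums (66.0 CPM). The oligodendrocyte sum was highest in library 1. The part of the marked cell types in the levels of Pfkp, Eno2, Pfkm and Hk1 was not tested.

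Sugar and lactate carriers and the regulators of the pathway were examined as lists chosen by function. Over the 69 other pathway genes, 52 reached 1 CPM or more in every library, 9 had no count at all, and 3 of the 54 tested were called, 5.56% beside 3.28% of all genes: Slc2a1, Slc16a8 and Epas1. All 3 were lowest in library 3, and none of them was called without it. Slc2a1, the glucose carrier abundant in brain endothelium, had 430, 383, 112 and 333 CPM in libraries 1 to 4 (adjusted p 0.00020, goodness of fit in edgeR). Epas1, the hypoxia-inducible factor subunit prominent in endothelium, had 238, 342, 57.9 and 272 CPM (adjusted p 3.2e-07, edgeR). Slc16a8, a lactate carrier known from the choroid plexus and the retina and named because it was called, had 12.4, 11.3, 1.63 and 13.9 CPM (adjusted p 0.015, edgeR), and its call was also lost without library 2 (0.060) or library 4 (0.060).

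Slc2a5, Hif1a, Mlxipl, Nfe2l2 and Slc16a3 were not lowest in library 3. Slc2a5, a fructose carrier known as a microglial gene, had 463, 328, 392 and 331 CPM. Its mean of 111 ± 18.8 CPM per kb was the highest of the carriers, beside 89.6 ± 40.2 for Slc2a1 (SD, n = 4). This order rests on library 3, since over libraries 1, 2 and 4 the means were 374 CPM for Slc2a5 and 382 CPM for Slc2a1. Hif1a, the ubiquitous hypoxia-inducible factor subunit, had 124, 133, 148 and 136 CPM. Mlxipl, a sugar-responsive transcription factor, had 262, 324, 318 and 293 CPM, and Nfe2l2, a regulator of NADPH-making enzymes, 267, 288, 304 and 253 CPM. Among lactate and pyruvate carriers Slc16a1, at 50.1, 36.7, 23.7 and 44.5 CPM, was lowest in library 3 without being called (adjusted p 0.75, edgeR), and Slc16a3, the lactate exporter of glycolytic cells, had 34.3, 50.5, 45.0 and 40.6 CPM.

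**Figure D5:**
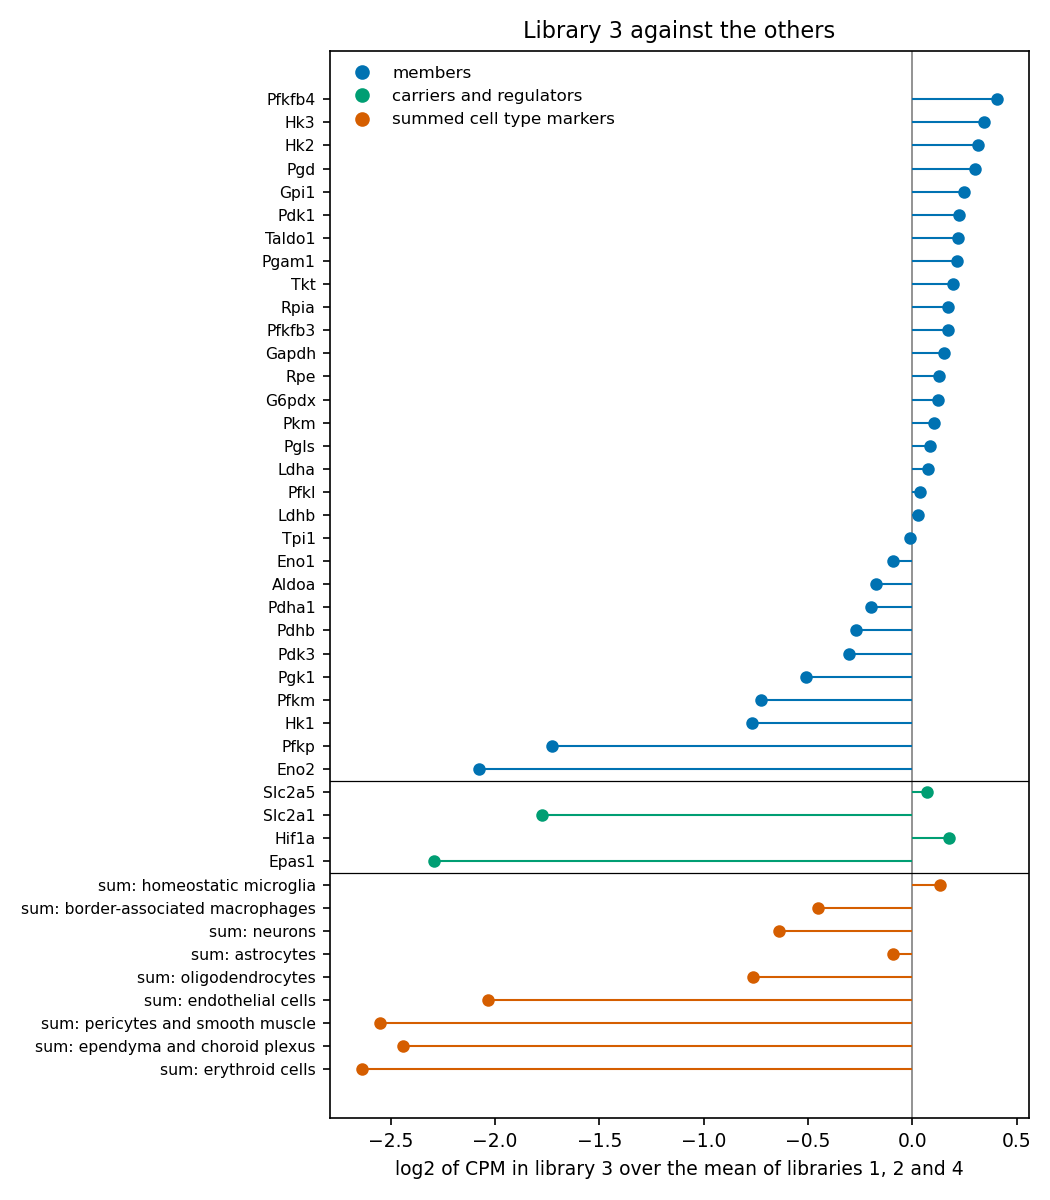
Log2 of CPM in library 3 over the mean of libraries 1, 2 and 4, for the 30 members in falling order, for the 2 highest hexose carriers and both hypoxia-inducible factor subunits, and for summed markers of 9 cell types. In this ratio Eno2 and Pfkp lie near Slc2a1, Epas1 and the endothelial sum. All members but Eno2, Pfkp, Hk1 and Pfkm lie between -0.51 and 0.41, beside the homeostatic microglia markers. The order of libraries 1, 2 and 4 is not shown by this ratio.

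Several isoenzymes of other tissues were not detected. Gapdhs, Pgk2 and Ldhc, known from sperm, and Tktl1, Tktl2 and Pdha2 had no count in any library, so that each lies below the floor of 3 counts. Eno3 was the highest of the other glycolytic isoenzymes at 25.7 ± 4.35 CPM, and Aldoc, the aldolase known from astrocytes, had 18.5 ± 3.43 CPM (SD, n = 4). H6pd, which makes NADPH inside the endoplasmic reticulum, had 58.4 ± 9.66 CPM and led the other pentose phosphate genes. Adpgk, an ADP-dependent glucokinase, had 39.0 ± 2.77 CPM. The second PFK-2 pair was low, with Pfkfb2 at 20.01 ± 2.61 and Pfkfb1 at 1.13 ± 0.109 CPM.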

How the data were processed

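Poly(A) RNA-seq of brain CD11b-positive cells gave 4 libraries of 1 group, each from 300 ng of RNA and a kit that preserves strand, per the labels' protocols. The authors deposited raw counts per Ensembl gene. Per the submitters' processing notes, base calls came from bcl2fastq 2.20.0.422, alignments from STAR 2.7.2b on GRCm38 and gene counts from featureCounts 1.6.5. Not given in the sources used here: the annotation release, the use of strand in counting, and the handling of reads that fit more than 1 gene. Reads shared with copies, paralogs or overlapping genes may be split, dropped or counted repeatedly. Gapdh, Pgk1, Pgam1 and Eno1 share the largest part of their transcripts with other genes. Pgls has the largest exon overlap on the same strand, 20.6% with Fam129c. On the other strand the overlap is largest for Rpe, 17.9% with Kansl1l, and Pdha1, 16.1% with Map3k15. Next are G6pdx, 13.6% with Ikbkg, and Gpi1, 11.5% with Gm26762. The effect of shared or overlapping sequence on the counts of these genes was not tested.

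Of 55471 identifiers, 55230 matched GENCODE M21, which gave symbols, coordinates and lengths. The table has no unassigned row, and its sample columns are those of the 4 libraries (0 others). CPM were computed with TMM factors from edgeR 4.0.16 (R 4.3.3) over the whole table. Spread was tested by comparing the deviance of an intercept-only negative binomial fit, at the trended dispersion, with the chi-square distribution for 3 degrees of freedom, in the 14112 genes that filterByExpr kept. On simulated data for those genes it found 7 of 100 genes changed 2-fold and 65 of 100 changed 4-fold in 1 library, with 5 false calls. The share of false calls in the measured counts, where genes can scatter around the trend, was not tested. DESeq2 1.42.0 served as an alternative, and BLAST 2.17.0 found copies.

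The members and all lists were chosen with earlier results of these data known. All 30 members are named. Other pathway genes may be named at 5 CPM per kb or more or as the 2 highest of a list, and copies at 1% or more of a member's counts where few. Markers are given as list sums, in places with the highest gene. Floors allow for counting error alone, because PCR copies of a molecule cannot be recognised here.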

Additional observations from a re-analysis of the deposited data

Results flagged for a closer look

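Of 78 values checked over the 4 libraries (the members, the 12 ratios and the other pathway genes named by rule), 5 had 1 library far from the rest, with a gap to the nearest library that exceeded Dixon's 95% critical value as a part of the whole range. Chance alone gives this in about 1 of 20 such groups. Library 2 stood apart in the log2 ratio of Pfkfb3 over Pfkfb4, at 1.47 against 0.93 to 0.96 (gap 0.942 of the range). Library 1 stood apart in the other 4. Pdhb was at 66.0 CPM there against 44.9 to 48.5 CPM (0.833), Pdhx, another subunit of the pyruvate dehydrogenase complex, at 27.6 CPM against 21.4 to 22.3 CPM (0.856), and Dld, its dihydrolipoamide dehydrogenase, at 121 CPM against 79.1 to 85.6 CPM (0.844). Mlxip, a sugar-responsive transcription factor, was at 150 CPM in library 1 against 230 to 237 CPM (0.923). None of these 4 genes passed the goodness of fit in edgeR (adjusted p 1.00 for each). Library 1 also had the highest sums of border-associated macrophage markers, 681 CPM against 272 to 327 CPM, and of erythroid markers, 365 CPM against 32.4 to 175 CPM, and the part of those cells was not tested.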

How the results depend on the processing

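The count of called members was 1 under total counts, DESeq2 size factors, scaling to homeostatic microglia markers and no filter, 0 by the quasi-likelihood test and by DESeq2's dispersion outliers, and 0 to 1 with 1 library left out. Over all genes, 463 calls (3.28%) became 425, 276, 106 and 258 without libraries 1, 2, 3 and 4, 5 as DESeq2 outliers and 0 by quasi-likelihood in edgeR (658 at an unadjusted p under 0.05, against 1350). All 12 ratios kept their sign without any 1 library, with the longest transcript, with copies added and with a pseudocount of 0. With the length of the longest coding transcript, and with unique length, both chosen after seeing the data, Pfkp over Pfkm turned to 0.088 and 0.34 and Pdha1 over Pdhb to -0.10 and -0.35 on the log2 scale. The longest coding transcript of Pfkp has 4145 bases, against 13401 in the union of exons. The longest transcript moved levels per kb by 1.08 to 2.65 times and unique length by 1.08 to 16.6 times, most for Gapdh, while adding copies moved Gapdh alone, by 2.36 times. Other scalings kept each of the 30 levels within 1 SD. No paired analysis was possible because there is 1 group. At this depth 41 to 157 counts stand behind Pgk1 and Pgam1 in a library, which limits their precision.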

Other observations

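Genes of glycogen and of hexose entry were all detected, with 10 of 10 at 1 CPM or more in every library and none called for its spread by the goodness of fit in edgeR. Khk, which phosphorylates fructose, had 73.6, 40.0, 52.0 and 43.5 CPM in libraries 1 to 4, highest in library 1, and 29.1 CPM per kb, the highest of the list. Ugp2, which makes UDP-glucose, had 62.3 ± 3.70 CPM and Pygb, the brain type of glycogen phosphorylase, 79.4 ± 10.4 CPM (SD, n = 4). Pgm1 and Pgm2, the phosphoglucomutases, had 27.8 ± 2.32 and 25.2 ± 1.08 CPM. Galk1, which admits galactose, had 12.5 ± 3.11 CPM.

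The enzymes particular to gluconeogenesis were split. Fbp1, Fbp2 and Pck1, known from liver, muscle and kidney, had no count in any library. Pck2, the mitochondrial form of the carboxykinase, had 72.2, 75.9, 72.7 and 67.7 CPM, and G6pc3, the ubiquitous glucose-6-phosphatase known for its role in neutrophils, 48.3, 43.9, 45.8 and 47.9 CPM. Both were nearly level across the libraries, and neither was called (adjusted p 1.00, edgeR).

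Among the other genes of pyruvate dehydrogenase, 7 of 8 were detected and 6 of the 7 tested were lowest in library 3, beside 29.2% of all tested genes, none of the 7 called. Dlat, the acetyltransferase, had 34.3 ± 2.28 CPM and Pdk2 25.4 ± 5.71 CPM. Egln1, an oxygen sensor that marks hypoxia-inducible factor for removal, had 53.3 ± 2.32 CPM, Vhl 89.3 ± 13.3 CPM and Arnt, the common partner subunit, 104 ± 14.1 CPM. Myc had 46.6 ± 1.20 CPM.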
